A study of Mus musculus with 2 samples.

Results

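The genes described here encode receptors through which innate immune cells and natural killer (NK) cells sense microbes, antibodies and other cells: Toll-like receptors with their partners Myd88 and Ly96, Nlrp genes, C-type lectins (Clec), Fc receptors, Siglec and Slamf genes, Pirb, and the killer-cell lectin-like receptors (Klr). They were chosen by gene symbol, and 67 genes belong to the set, on 93 probe sets, of 12393 genes that can be named from a probe set with 1 symbol. Their expression was measured on Affymetrix mouse arrays in EiPS teratomas and B6 ES teratomas. The first array held RNA of tumours grown from EiPS cells (1E12 iPS in the labels), induced pluripotent cells of strain C57BL/6 (B6), chosen as tumours in regression. The other held RNA of tumours formed by B6 ES cells, embryonic stem cells of the same strain, which the labels do not describe as regressing. Hosts were male B6 mice injected subcutaneously, tumours were taken at week 6, and each array held the combined RNA of 2 tumours. The age of the hosts is not given in the sources used here. The comparison addresses how regressing tumours of EiPS cells differ in expression from ES cell tumours in hosts of the same strain. Because there is 1 array per group and 1 line per cell type, the cell line and the regression of its tumours cannot be told apart, and no difference below has a replicate check or a test.

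Toll-like receptors recognise microbial lipids, proteins and nucleic acids and pass the signal through adaptors such as Myd88 to NF-kappaB. Fc receptors bind the constant part of antibodies, and many of them, like several myeloid C-type lectins, carry no signalling motif and depend on a partner with an immunoreceptor tyrosine-based activation motif (ITAM), such as Fcer1g or Tyrobp, which recruits the kinase Syk. Other receptors of the set, Fcgr2b and Pirb among them, carry inhibitory motifs (ITIMs) that recruit phosphatases. NK cells weigh such activating and inhibitory inputs, and many of their receptors bind MHC class I molecules or Clec2 proteins on other cells.

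Values are MAS5 signals, a linear measure of probe set brightness. A signal floor of 25.8 was set at the 90th percentile of 71 probe sets for odour, pheromone and taste receptors. A gene above the floor on at least 1 array counts as measured, and a gene under it on 1 array is set to the floor there, so that its difference is a bound, given as "at least". Differences are log2 signals of the EiPS pool minus the B6 ES pool. The SD between probe sets of the same gene, 0.40 on the log2 scale over 3805 genes and 0.51 at mean signals under 100, was the only gauge of measurement noise, and it leaves out variation between tumours and arrays. The median signal over all 22690 probe sets was 196 in the EiPS pool and 179 in the B6 ES pool.

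Signals of receptors shared by macrophages and other myeloid cells were moderately higher in the EiPS pool. Most killer-cell receptors were under the floor in both pools, beside 11.5% of all genes. Among the 31 receptor genes above the floor on both arrays, 26 had the higher signal in the EiPS pool, beside 55.3% of the 10218 genes of the whole array above it on both, and the median difference was 0.48, beside 0.06 over those genes. Large differences were few. Among these 31 genes Clec2h, Clec2d and Fcgr4 reached a 2-fold higher signal, beside 4.9% of those 10218 genes, and none was at least 2-fold lower, beside 2.96%. Pirb passed the floor only in the EiPS pool and was at least 3.04-fold higher.

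In all, 44 of the 67 genes were measured (65.7%), beside 88.5% of all 12393 genes. Of these 44, 10 were measured in the EiPS pool only, beside 4.67% of 10962 measured genes. Another 3 were measured in the B6 ES pool only, beside 2.12%. These 13 passed the floor through the pool in which they were higher, so they had to differ. With them, 36 of 44 genes were higher in the EiPS pool, beside 56.2% of all measured genes, 4 were at least 2-fold higher, beside 5.79%, and 0 at least 2-fold lower, beside 3.05%. At 1.5-fold, 11 were higher, beside 15.2%, and 2 lower, beside 9.31%. The median was 0.36, beside 0.07 over all measured genes. After quantile normalization or with equal array medians, the calls at 2-fold became 3 higher (Clec2d, Clec2h and Pirb) and 1 lower (Clec14a), while the share of higher genes among all calls at 2-fold was 53.0% and 52.5%, beside 65.5% with the deposited scaling. Equal medians moved the median of all genes to -0.06. Relative to the median of all genes, that of the receptor genes lay higher by 0.29 with the deposited scaling, by 0.35 with equal medians and by 0.24 after quantile normalization.

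**Figure D1:**
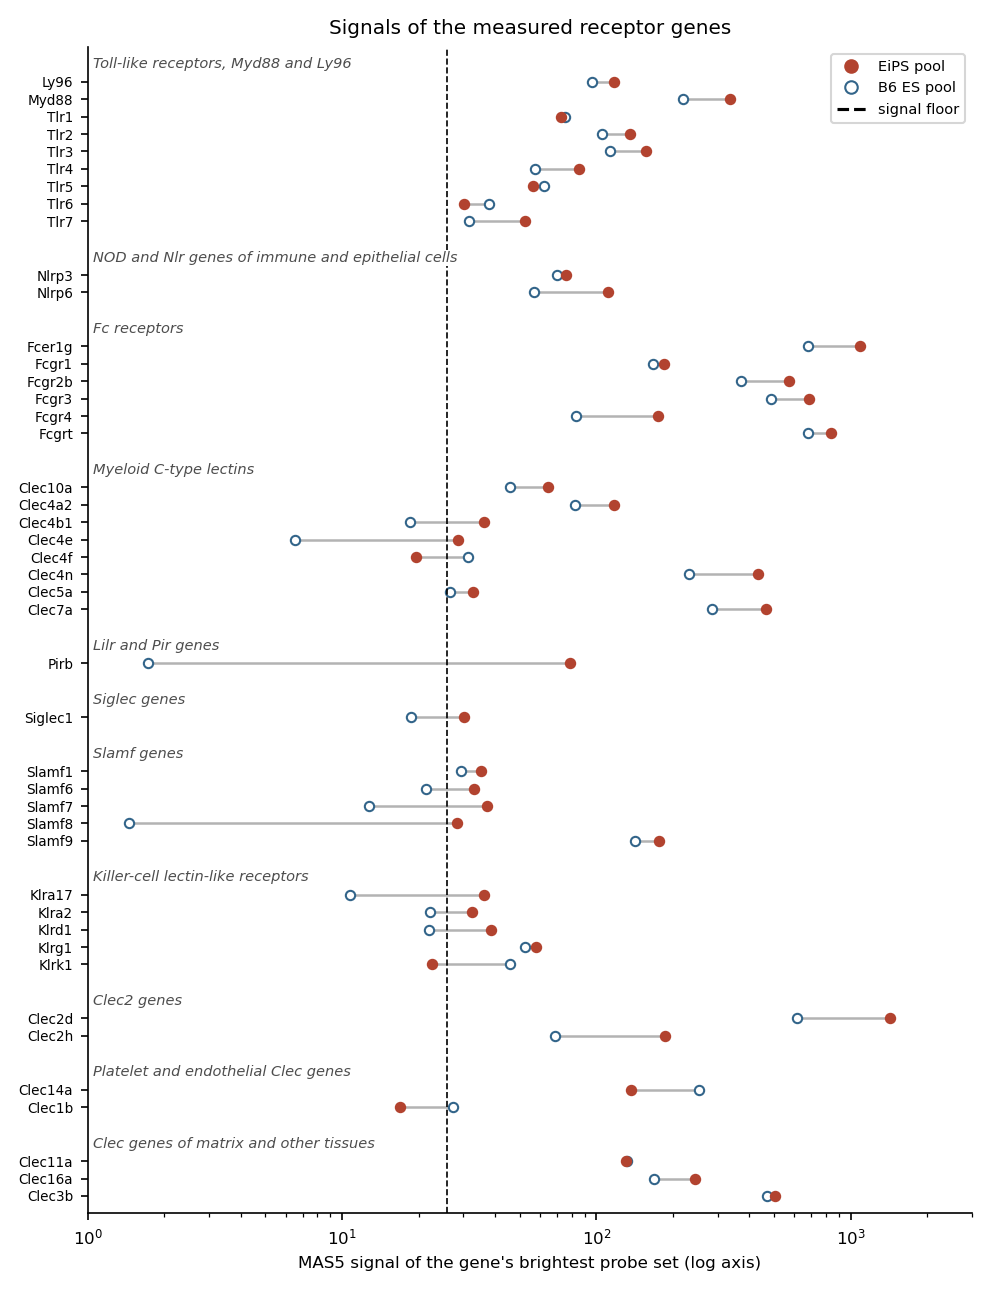
MAS5 signals (log axis) of the 44 measured receptor genes, grouped by role, in the EiPS pool (filled) and the B6 ES pool (open), 1 array each; the dashed line is the signal floor of 25.8. In 36 of the 44 genes the filled point lies to the right of the open one, and many genes lie close to the floor.

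The upstream sequences of the 4 genes that reached 2-fold are shown because these genes carry the largest differences of the set. Each run is the 250 bases before the gene's start in RefSeq (GRCm38.p6), 5′ to 3′ on the gene's strand, and capitals mark GAGGAA or its reverse complement TTCCTC, the core bound by Spi1, an Ets factor of myeloid cells. The motif was chosen after the values were seen.
Fcgr4 (chr1:171018676-171018925, plus strand): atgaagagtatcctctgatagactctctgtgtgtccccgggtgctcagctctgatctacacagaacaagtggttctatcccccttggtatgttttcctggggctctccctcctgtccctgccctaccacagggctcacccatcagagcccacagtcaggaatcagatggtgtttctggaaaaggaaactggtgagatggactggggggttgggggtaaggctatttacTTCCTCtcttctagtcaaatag
Pirb (chr7:3720383-3720632, minus strand): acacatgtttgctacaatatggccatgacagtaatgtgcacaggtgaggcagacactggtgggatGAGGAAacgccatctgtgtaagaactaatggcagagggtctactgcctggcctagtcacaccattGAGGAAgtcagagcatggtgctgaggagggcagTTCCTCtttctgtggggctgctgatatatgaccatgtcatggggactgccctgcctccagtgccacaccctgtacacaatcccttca
Clec2d (chr6:129180365-129180614, plus strand): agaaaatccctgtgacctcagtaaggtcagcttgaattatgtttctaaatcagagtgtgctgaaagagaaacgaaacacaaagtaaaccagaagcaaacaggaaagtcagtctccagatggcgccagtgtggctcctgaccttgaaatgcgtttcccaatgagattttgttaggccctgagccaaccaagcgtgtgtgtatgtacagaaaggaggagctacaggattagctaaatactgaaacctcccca
Clec2h (chr6:128662135-128662384, plus strand): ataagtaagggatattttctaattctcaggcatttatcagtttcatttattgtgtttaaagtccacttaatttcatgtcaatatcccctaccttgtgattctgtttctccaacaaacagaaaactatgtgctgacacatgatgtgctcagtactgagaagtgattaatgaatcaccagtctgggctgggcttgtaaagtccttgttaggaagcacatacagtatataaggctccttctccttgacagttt
The letters occurred 3 times upstream of Pirb, 1 time upstream of Fcgr4, and at neither Clec2 gene within this window. They occurred in 23.3% of 32851 such windows of the whole table and in 44.3% of the 70 windows of receptor genes, which covered 57 of the 67 genes. Among genes with a window, 16 of 35 measured ones and 27 of all 57 had a match, 45.7% and 47.4%. A match of letters is no evidence of binding.

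Toll-like receptors differed by less than 2-fold. Of 11 genes in this group, 9 were measured, all on both arrays; 6 were higher and 3 lower in the EiPS pool, and the median was 0.37. It was 0.14 after quantile normalization, 0.20 with equal medians, 0.21 after loess scaling and 0.24 with log2(signal + 64). Myd88, the adaptor of nearly all Toll-like receptors, had a signal of 337 in the EiPS pool and 220 in the B6 ES pool, 1.53-fold higher. Tlr7, which senses single-stranded RNA in endosomes, had signals of 52.2 in the EiPS pool and 31.6 in the B6 ES pool, 1.65-fold higher, both near the floor. Its other probe sets were under the floor in both pools. With a floor at the 98th percentile its difference was 0.09, and with probe sets averaged Tlr7 was not measured. The receptor for lipopolysaccharide, Tlr4, had signals of 85.4 and 57.4 in the EiPS and B6 ES pools (0.57 on the log2 scale), and its other probe set differed by 0.31. Its co-receptor Ly96 (MD-2) had signals of 118 in the EiPS pool and 96.2 in the B6 ES pool, a difference of 0.29. Both parts of the lipopolysaccharide receptor were thus a little higher, within or near the spread between probe sets. Other genes of lipopolysaccharide recognition went both ways. Lbp was higher in the EiPS pool (0.37), and Cd14 was lower, at 207 in the EiPS pool and 237 in the B6 ES pool (-0.20).

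Tlr3, which binds double-stranded RNA and signals without Myd88, had signals of 157 in the EiPS pool and 113 in the B6 ES pool, a difference of 0.48, and 0.88 by its other probe set. The lipoprotein receptors did not share a direction. Tlr2 had signals of 136 and 106 in the EiPS and B6 ES pools (0.37), whereas its partners had small negative differences: Tlr1 had 72.4 in the EiPS pool and 75.1 in the B6 ES pool (-0.05), and Tlr6 had 30.1 in the EiPS pool and 37.9 in the B6 ES pool (-0.33). The flagellin receptor Tlr5 had signals of 56.6 in the EiPS pool and 62.3 in the B6 ES pool (-0.14). Tlr8 and the sensor of unmethylated DNA, Tlr9, were under the floor in both pools.

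Of the pathway beyond the receptors, 23 of 31 listed genes had a probe set of their own and all 23 were measured. Of these 17 were higher, beside 56.2% of all measured genes, and 6 lower, none at 2-fold. Their median of 0.25 was 0.13 with equal medians. Irf7, a transcription factor of interferon responses, was the farthest apart, with signals of 407 in the EiPS pool and 225 in the B6 ES pool, followed by Unc93b1, which carries endosomal Toll-like receptors to their compartment (0.67), Cd36 (0.60) and Irf5 (0.49). Cytokine and enzyme genes known as targets of this pathway were farther apart than the receptors. All 11 measured of 16 were higher in the EiPS pool, beside 56.2% of all measured genes. At 2-fold or more were 6 of them, beside 5.79%. Their median over the 11 was 1.06, or 0.56 with log2(signal + 64). Cxcl2, 1 of the 6 at 2-fold, and Il12b passed the floor only in the EiPS pool and had to be higher. The chemokine Cxcl1 had signals of 188 in the EiPS pool and 47.4 in the B6 ES pool, 3.96-fold higher. Ccl2, which attracts monocytes, had 180.4 in the EiPS pool and 59.5 in the B6 ES pool, 3.03-fold higher; Cxcl2 was at least 2.40-fold and Ptgs2 2.37-fold higher. Ifnb1, Il10, Il12a, Il6 and Nos2 were under the floor in both pools.

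Of the Nlrp genes, Nlrp6, best known from intestinal epithelium, had signals of 111 in the EiPS pool and 57.1 in the B6 ES pool, 1.95-fold higher. Nlrp3, the inflammasome sensor of myeloid cells, had 76.2 in the EiPS pool and 69.9 in the B6 ES pool, a difference of 0.12 that was below 0 after quantile normalization, equal medians or loess scaling. Nlrp4c and Nlrp5, known from oocytes and early embryos, were under the floor in both pools. Among 15 partners of NOD and inflammasome receptors with a probe set of their own, 14 were measured. Of these 10 were higher, beside 56.2% of all measured genes, and 4 lower. Their median of 0.46 was 0.20 after quantile normalization, 0.22 with log2(signal + 64) and 0.016 with a floor of 100. The bacterial sensor gene Naip5 was 2.16-fold and the inflammasome substrate Il1b 2.09-fold higher. Of 13 intestinal marker genes above the floor on both arrays, 10 were higher in the EiPS pool, beside 55.3% of all such genes. At least 2-fold higher were 8, beside 4.9%, and 1 was at least 2-fold lower (Fabp2, 2.73-fold), beside 2.96%. Fabp1 (-0.07) and Slc26a3 (-0.13) were also lower, by less than the SD between probe sets. The summed signal over 14 intestinal genes was 8713 in the EiPS pool and 4705 in the B6 ES pool. Of these sums Tff3 held 2299 and 331, and Lgals4 held 1953 and 861. Of that list, only Cdx1 was under the floor in both pools. The part of intestinal tissue in the result was not tested.

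All measured Fc receptors had the same direction. Of 8 genes, 6 were measured, all 6 on both arrays. All 6 were higher in the EiPS pool, beside 55.3% of the 10218 genes that passed the floor in both pools. Their median was 0.56, beside 0.06 over those 10218 genes. The activating IgG receptor Fcgr4 had a signal of 176 in the EiPS pool and 83.4 in the B6 ES pool, 2.11-fold higher; its difference of 1.07 was under 2-fold after the 3 other scalings, at 0.90 to 0.96 on the log2 scale. Fcgr3, another activating IgG receptor, had signals of 686 in the EiPS pool and 485 in the B6 ES pool, 1.41-fold higher. Fcer1g, the ITAM-bearing chain that Fcgr1, Fcgr3 and Fcgr4 signal through, had 1090 in the EiPS pool and 678 in the B6 ES pool, 1.61-fold higher. The inhibitory receptor was higher together with the activating ones.

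That receptor, Fcgr2b, had signals of 571 in the EiPS pool and 370 in the B6 ES pool, 1.54-fold higher, and its 4 probe sets differed by 0.32 to 0.63. Fcgr1, the receptor with high affinity for IgG, was less far apart, at 185 in the EiPS pool and 168 in the B6 ES pool (0.14). Fcgrt, the neonatal Fc receptor that recycles IgG in many cell types, had 834 in the EiPS pool and 678 in the B6 ES pool (0.30). In these 2 genes the differences were smaller than the SD between probe sets. The IgE receptors Fcer1a, of mast cells and basophils, and Fcer2a, of B cells, were under the floor in both pools.

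**Figure D2:**
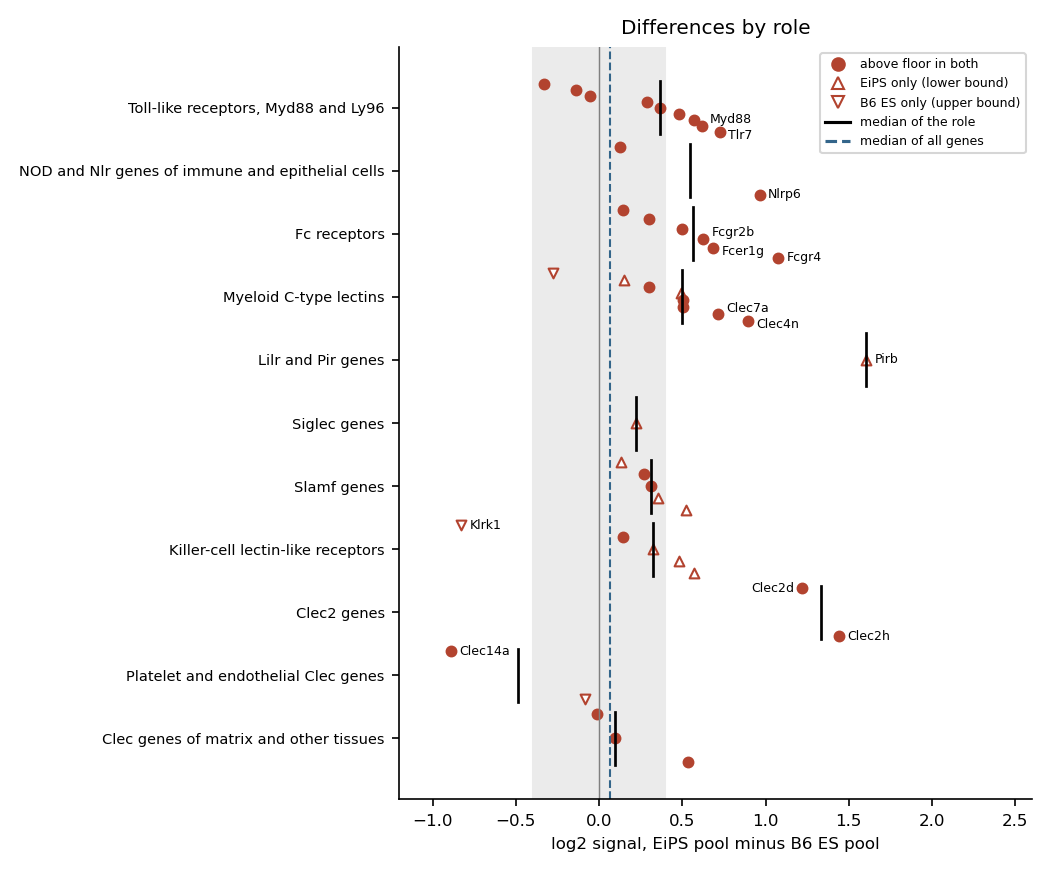
Difference in log2 signal, EiPS pool minus B6 ES pool, of each measured receptor gene by role; triangles are bounds from genes above the floor in 1 pool only, black bars are role medians, the dashed line is the median of all genes (0.07) and the grey band is the SD between probe sets (0.40) on either side of 0. Names are given from 1.5-fold up. Fc receptors and myeloid C-type lectins lie mostly right of 0, and Clec14a and Klrk1 lie farthest left.

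Among C-type lectins of myeloid cells, 8 of 9 genes were measured, none at 2-fold. In the EiPS pool 7 of these lectins were higher, beside 56.2% of all measured genes, and 1 was lower. Their median of 0.50 was 0.26 after quantile normalization and 0.29 with log2(signal + 64). Clec4n (Dectin-2), a receptor for fungal mannans that signals through Fcer1g, had signals of 432 in the EiPS pool and 232 in the B6 ES pool, 1.86-fold higher, and its other probe set was 2.63-fold higher. Clec7a (Dectin-1), the receptor for fungal beta-glucan, had 466 in the EiPS pool and 284 in the B6 ES pool, 1.64-fold higher. Both antifungal receptors were thus higher in the EiPS pool. So were 26 of the 31 receptor genes above the floor on both arrays, beside 55.3% of all such genes. Clec4a2, an inhibitory lectin of dendritic cells and macrophages, had 117 in the EiPS pool and 82.8 in the B6 ES pool (0.50), and its other probe set, which passed the floor only in the EiPS pool, differed by at least 0.31. Clec10a, a galactose-binding lectin of macrophages, had 64.7 in the EiPS pool and 45.7 in the B6 ES pool (0.50).

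The remaining myeloid lectins lay near the floor. Clec5a had signals of 32.6 in the EiPS pool and 26.5 in the B6 ES pool, a difference of 0.30 that was -0.03 after quantile normalization. Clec4b1 and Clec4e (Mincle, a receptor for mycobacterial glycolipid) passed the floor only in the EiPS pool, with signals there of 36.3 and 28.7. They were higher by at least 1.40-fold and 1.11-fold there. Clec4f, a lectin of mouse Kupffer cells, was above it in the B6 ES pool only, with 19.6 in the EiPS pool and 31.3 in the B6 ES pool. Clec4g was under it in both. Differences and bounds of these genes were smaller than the SD between probe sets at such signals.

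Pirb, an inhibitory receptor of myeloid and B cells that binds MHC class I, had a signal of 78.7 in the EiPS pool and 1.73 in the B6 ES pool, at least 3.04-fold higher. The bound rests on 1 probe set and on the floor: it was not measured with a floor of 100, and a floor at the 98th percentile of the silent receptors left it below 2-fold. Siglec1 (sialoadhesin), a macrophage receptor for sialic acid, passed the floor only in the EiPS pool, with 30.2 there and 18.6 in the B6 ES pool. Siglece and Siglecf were under it in both.

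Slamf genes encode leukocyte receptors, many of which bind their own kind on other cells. All 5 were measured and higher in the EiPS pool, beside 56.2% of all measured genes. However, 3 of them passed the floor in that pool only and therefore had to be higher. No value or bound reached 1.5-fold at this floor. A lower floor, at the 75th percentile, brought Slamf7 to at least 0.92 and Slamf6 to 0.62 on the log2 scale. Slamf9 had signals of 176 in the EiPS pool and 142 in the B6 ES pool, a difference of 0.31, within the SD between probe sets. Slamf1 had 35.3 in the EiPS pool and 29.3 in the B6 ES pool (0.27, and -0.06 after quantile normalization). Slamf7, known from plasma and NK cells, had 37.04 in the EiPS pool and 12.8 in the B6 ES pool, at least 1.43-fold higher, and Slamf8, of macrophages, had 28.3 in the EiPS pool and 1.45 in the B6 ES pool, at least 1.09-fold higher.

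Partners of the ITAM and ITIM receptors did not share 1 direction. Of 17 ITAM adaptors, kinases and linkers with a probe set of their own, 13 were measured. Of these 9 were higher, beside 56.2% of all measured genes, and 4 lower, with a median of 0.31. It was 0.19 with equal medians or loess scaling, 0.16 with a floor at the 98th percentile, 0.12 with probe sets averaged, 0.11 with log2(signal + 64), 0.075 after quantile normalization and 0.051 with a floor of 100. Syk, the kinase that ITAMs recruit, had signals of 123 in the EiPS pool and 54.1 in the B6 ES pool, 2.27-fold higher, the 1 gene of this list at 2-fold. The adaptor Tyrobp had 1693 in the EiPS pool and 915 in the B6 ES pool, 1.85-fold higher, and the linkers Lcp2 and Lat2 were 1.91-fold and 1.72-fold higher. Btk, Lat, Plcg1 and Sh2d1a were under the floor in both pools. The 4 phosphatases of ITIM signalling differed by -0.24 (Ptpn11) to 0.32 (Inpp5d), with 0.21 for Ptpn6 and 0.06 for Inppl1, all smaller than the SD between probe sets.

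Markers of leukocytes moved with these receptors. In bulk tumour RNA, fewer cells of a type and less RNA per cell cannot be told apart. Of 9 measured pan-leukocyte genes, 8 were higher in the EiPS pool; their median was 0.43, with a summed signal of 4737 in the EiPS pool and 3428 in the B6 ES pool; Cd52 was 1.92-fold higher, and Ptprc (CD45) had 396 in the EiPS pool and 295 in the B6 ES pool. Of 14 measured macrophage and monocyte genes, 10 were higher and 4 lower, with a median of 0.32 and a summed signal over 16 genes of 25466 in the EiPS pool and 18438 in the B6 ES pool. Within that list Cd68 (1.06), Lyz2 (0.95), Mertk (0.69) and C1qb (0.56) were the farthest apart, and Cd163 and Marco were under the floor in both pools. The defining markers Csf1r (-0.14) and Adgre1 (-0.05) were no higher in the EiPS pool. Itgam (-0.30) and Mrc1 (-0.16) were also lower there. With equal medians the macrophage median was 0.19. Their part in the receptor differences was not tested.

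Neutrophil genes were farther apart in their median (0.71), with 8 of 10 measured higher, beside 56.2% of all measured genes. Their summed signal over 11 genes was 5134 in the EiPS pool and 2007 in the B6 ES pool, of which Ltf alone held 3901 and 1434. Of the 8, Camp, Mmp8 and Ngp passed the floor only in the EiPS pool and had to be higher. The median was 0.44 with log2(signal + 64) and 1.44 over the 3 genes left by a floor of 100. S100a9 was 6.00-fold higher, Ltf, also made by gland epithelium, 2.72-fold, and Cxcr2 was under the floor in both pools. Mpo differed by 0.14 and Csf3r by -0.06, and Elane was 1.55-fold lower in the EiPS pool. Dendritic cell genes had a median of 0.41 over 9 measured, 6 higher, beside the same 56.2%, and 3 lower. Itgax had 216 in the EiPS pool and 94.8 in the B6 ES pool, and Xcr1 was under the floor in both. Ccr7 passed it in just the EiPS pool, and Cd209a in just the B6 ES pool, so that Cd209a was at least 1.65-fold lower. Zbtb46 was also lower, at 129 in the EiPS pool and 168 in the B6 ES pool (-0.39). The dendritic cell median was 0.62 with a floor at the 98th percentile, 0.65 with probe sets averaged and 0.75 with no floor. The summed signal over 10 dendritic cell genes was 2180 in the EiPS pool and 1529 in the B6 ES pool. Of these sums Bst2 alone held 1017 and 567.

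**Figure D3:**
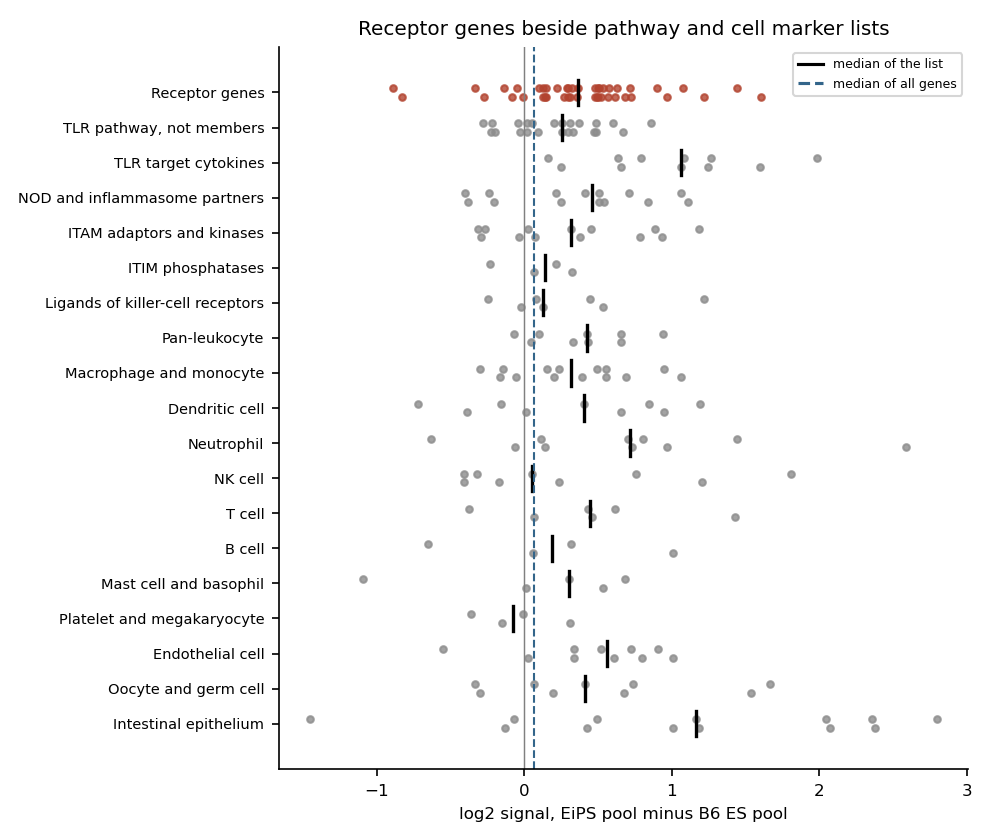
Difference in log2 signal, EiPS pool minus B6 ES pool, of measured genes (points) and the median (black bar) of the receptor genes and of each pathway or cell marker list; the dashed line is the median of all genes (0.07). The medians are 0.36 for the receptor genes, 0.43 for pan-leukocyte, 0.32 for macrophage and 0.05 for NK cell genes, 1.06 for Toll-like receptor target cytokines and 1.16 for intestinal genes.

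Killer-cell lectin-like receptors were mostly not measurable. Of 16 genes, 11 were under the floor in both pools, beside 11.5% of all genes. These 11 had signals of 0.727 to 21.7 in the EiPS pool and 0.321 to 16.1 in the B6 ES pool. They comprise 5 of the Klra (Ly49) receptors for MHC class I, Klrb1a, Klrb1b and Klrb1f, and the NKG2 genes Klrc1, Klrc2 and Klrc3. At these signals no difference between the pools was detectable. Klrg1, an inhibitory receptor for cadherins, was the only 1 of the 16 above the floor on both arrays, with 58.02 in the EiPS pool and 52.6 in the B6 ES pool, a difference of 0.14 that was -0.13 after quantile normalization.

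The other measured killer-cell genes were above the floor in 1 pool only. Klrd1 (CD94), the partner of NKG2 proteins, had 38.4 in the EiPS pool and 21.9 in the B6 ES pool, at least 1.48-fold higher. Klra17 and Klra2, Ly49 genes known from dendritic and other myeloid cells, had 36.02 and 32.4 in the EiPS pool against 10.8 and 22.2 in the B6 ES pool, higher by at least 1.39-fold and 1.25-fold. Klrk1 (NKG2D), the activating receptor for stress-induced ligands, went the other way, with 22.7 in the EiPS pool and 45.9 in the B6 ES pool, at least 1.78-fold lower. A floor at the 75th percentile of the silent receptors brought it to -1.02 on the log2 scale.

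NK cell markers gave no common direction beside them. Of 9 measured, 5 were higher and 4 lower, the median of 0.05 lay between -0.25 (quantile normalization) and 0.43 (probe sets averaged) under the alternatives, and the summed signal over 12 genes was 436 in the EiPS pool and 314 in the B6 ES pool. The cytotoxic granule gene Gzma was 2.30-fold higher, and Xcl1, a chemokine, at least 3.49-fold higher. Xcl1 and Itga2 passed the floor in just the EiPS pool, and Tbx21 in just the B6 ES pool. Nkg7 differed by 0.76 and Il2rb by -0.41 on the log2 scale. Ncr1, Gzmb and Cd244a were under the floor in both pools.

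The Clec2 genes, which encode ligands of the Klrb1 (NKR-P1) receptors, held the 2 largest differences among receptor-set genes above the floor on both arrays. Clec2d (Clr-b), found on most blood cells and a ligand of the inhibitory receptor Klrb1b, had a signal of 1431 in the EiPS pool and 614 in the B6 ES pool, 2.33-fold higher. It was at least 2-fold higher under all 10 alternative settings. Klrb1b itself had signals of 21.7 in the EiPS pool and 13.6 in the B6 ES pool, both of them too low to compare. Clec2h (Clr-f), known from gut epithelium, had 187 in the EiPS pool and 68.8 in the B6 ES pool, 2.71-fold higher, but its 3 probe sets did not give the same size, with differences of 1.44, 0.78 and 0.16. With probe sets averaged Clec2h differed by 0.79, and with a floor of 100 by at least 0.90. The intestinal markers given beside Nlrp6 were mostly higher too, and their part in the difference of Clec2h was not tested. Clec2g, Clec2i and Clec2m were under the floor in both pools.

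**Figure D4:**
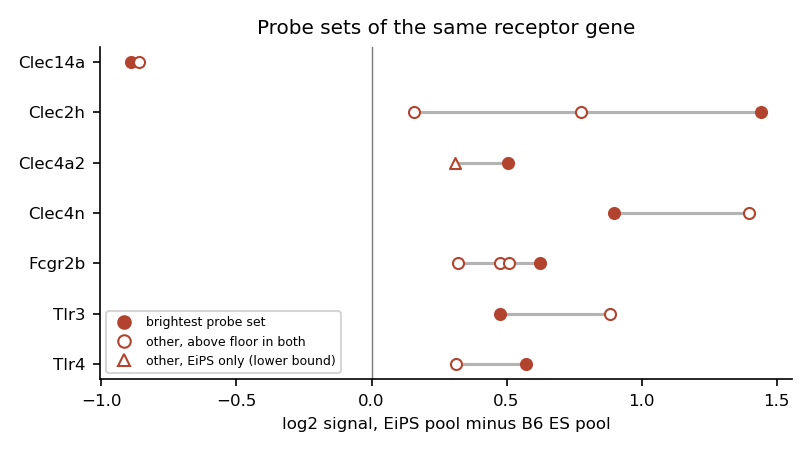
Difference in log2 signal, EiPS pool minus B6 ES pool, for each measured probe set of the 7 receptor genes with more than 1; filled points are the probe sets used for the gene, the triangle is a bound. In all 7 genes the probe sets have the same direction, and those of Clec2h are the farthest apart, from 0.16 to 1.44.

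Of other ligands of killer-cell receptors on the list, the MHC class I genes H2-K1 and H2-D1 were 1.45-fold and 1.36-fold higher in the EiPS pool, and B2m differed by 0.08. The cadherins bound by Klrg1 differed by -0.02 (Cdh1), 0.13 (Cdh2) and -0.25 (Cdh4). Only 7 of the 17 listed ligands had a probe set of their own, and apart from Clec2d none of these was at 2-fold. The listed ligands of Klrk1 (Raet1 genes, Ulbp1 and H60 genes) and H2-T23 had no such probe set and were not compared.

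Clec14a, a lectin of endothelial cells, was the only gene of the set above the floor on both arrays and at least 1.5-fold lower. Its signals were 137 in the EiPS pool and 254 in the B6 ES pool, 1.85-fold lower, and its other probe set, at 52.6 in the EiPS pool and 95.4 in the B6 ES pool, was 1.81-fold lower. Endothelial markers went the other way: 9 of 10 were higher in the EiPS pool; their median was 0.56, with a summed signal of 4010 in the EiPS pool and 2759 in the B6 ES pool, and only Tek (-0.55) was lower. Clec1b (CLEC-2), the podoplanin receptor of platelets, was above the floor in the B6 ES pool only, with 16.9 in the EiPS pool and 27.4 in the B6 ES pool. Of the lectin genes of matrix and other tissues, Clec16a, an autophagy gene, had 245 in the EiPS pool and 169 in the B6 ES pool (0.53), Clec11a, a secreted growth factor of bone marrow stroma, had 131.02 in the EiPS pool and 131.9 in the B6 ES pool, and Clec3b (tetranectin) had 502 in the EiPS pool and 469 in the B6 ES pool, a difference of 0.10 that was -0.03 with equal medians.

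Many of these genes lie side by side in the genome, as the order of protein-coding genes in RefSeq shows. With at most 5 other genes between neighbours, 39 of the 67 fell into runs of 2 or more. The longest run, of 21 genes, is the NK gene complex, which holds Klra, Klrb1, Klrc and Clec2 genes with Clec7a, Clec1b, Klrd1 and Klrk1. Within it 13 genes were under the floor in both pools, beside 11.5% of all genes. The 8 measured ones went both ways, from a bound of -0.83 (Klrk1) to 1.44 (Clec2h). In a run of 4 lectin genes (Clec4b1, Clec4a2, Clec4n and Clec4e) every gene was higher in the EiPS pool. The same held for a run of 3 Fc receptor genes (Fcgr2b, Fcgr4 and Fcgr3), for Slamf7, Slamf1 and Slamf6, and for Slamf9 and Slamf8. Tlr1 and Tlr6, also neighbours, were both lower (-0.05 and -0.33). Of all measured genes 56.2% were higher, a share of single genes and not of runs. Clec4b1, Clec4e, Slamf6, Slamf7 and Slamf8 passed the floor only in the EiPS pool and had to be higher.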

How the data were processed

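The authors deposited linear intensity values per probe set, computed with Affymetrix Expression Console and MAS5 according to the submitters' processing notes, which name no version here. Both arrays had the same 2% trimmed mean (499.9), so they had been scaled to 1 level before deposit, and nothing further was applied. Of 22690 probe sets, 20380 carried 1 gene symbol, updated by Entrez identifier with RefSeq (GRCm38.p6, 20351 matched); 691 carried several, 1555 none, and 64 were controls. A gene is represented by the brightest of its single-symbol probe sets (mean of both log2 signals). MAS5 subtracts mismatch signal, so low signals are noisy. Above the floor were 81.9% of probe sets on the EiPS array and 79.1% on the B6 ES array. The 2 arrays, 1 per group, limit the precision, and no p-value was computed. The procedure was checked on simulated data with planted differences larger than any of the receptor genes, in genes above the floor on both arrays. Smaller planted differences and bounds at the floor were not checked.

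Members and lists were chosen with earlier results of these data known. The intestinal list and the promoter motif were added after the values were seen. Every receptor gene could be named; of each list, up to 4 measured genes farthest apart, with the farthest in the opposite direction where both reached 2-fold. Ptprc, Csf1r, Adgre1, Itgam, Mrc1, Tek, B2m, Cdh1, Cdh2, Cd14, Lbp, Csf3r, Elane, Mpo, Zbtb46, Fabp1, Slc26a3 and Lgals4 were named after their values were seen. Some genes of these families are not reported here. Alternatives were 4 other floors (none, the 75th and 98th percentiles, 100), log2(signal + 64), quantile normalization, equal medians, loess (span 0.4), the mean over probe sets, and leaving out shared probe sets. Python 3.11.15 with pandas 2.3.3 and statsmodels 0.14.6 was used.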

Additional observations from a re-analysis of the deposited data

Results flagged for a closer look

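Probe sets annotated to several symbols were not used for any gene above. Of 9 such probe sets that carry a symbol of these receptor families, 5 were above the floor on at least 1 array, 4 of them higher and 1 lower in the EiPS pool. One had a signal of 686 in the EiPS pool and 195 in the B6 ES pool, a difference of 1.81 on the log2 scale (3.51-fold higher), and stands here because it lies in data outside the comparison. Its gene cannot be named from a probe set with several symbols.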

How the results depend on the processing

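With 4 receptor genes at least 2-fold higher and 0 lower in the deposited scaling, the count higher was 13 with no floor (signals under 1 set to 1), 1 with a floor of 100 and 2 with log2(signal + 64), and 3 to 5 in the other alternatives. The count lower was 1 for a floor at the 75th percentile (Klrk1), 3 with no floor (Klra16, Klrc1 and Klrk1), and 1 after quantile normalization and 1 with equal medians (Clec14a in both). The median over measured receptor genes, 0.36, was 0.50 and 0.48 with the floors at the 75th and 98th percentiles, 0.49 with no floor, 0.48 with a floor of 100, 0.26 with log2(signal + 64), 0.24 after quantile normalization, 0.29 with equal medians and 0.44 with probe sets averaged. It stayed above the median of all genes throughout. Over all genes, 635 higher and 334 lower calls became 1234 and 713 with no floor and 246 and 187 with log2(signal + 64), and the count higher was 305 with a floor of 100. The median of all genes, 0.07, was -0.059 with equal medians, and that of mast cell genes -0.21 with a floor at the 98th percentile or at 100, which left 2 genes. Floors change which genes are measured; other causes were not tested. No paired analysis was possible because each group has 1 array. Signals near the floor, as for most killer-cell receptors, limit what can be compared.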

Other observations

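Lists of other cell types that could carry these receptors were measured in part. Of mast cell and basophil genes, 5 of 11 were measured, 3 of them in the EiPS pool only: Hdc had 148 in the EiPS pool and 316 in the B6 ES pool, Kit had 464 in the EiPS pool and 289 in the B6 ES pool, and the defining genes Ms4a2, Mcpt4 and Tpsb2 were under the floor in both pools, as was the receptor gene Fcer1a. Of B cell genes, 4 of 9 were measured, with Blnk 2.01-fold higher and Blk 1.57-fold lower, and Cd79a, Ms4a1 and Pax5 under the floor in both pools, as was Fcer2a; the median of 0.19 was -0.01 after quantile normalization and 1.01 with a floor of 100, which left 1 gene. Of T cell genes, 6 of 11 were measured, with Il7r at 81.7 in the EiPS pool and 30.3 in the B6 ES pool and Cd3d, Cd4 and Cd8b1 under the floor in both pools. Of platelet genes 4 were measured, with Itga2b at -0.36. Of oocyte and germ cell genes, 9 of 12 were measured and 7 were higher in the EiPS pool, 6 of the 9 in that pool only; Pou5f1, also a pluripotency gene, was at least 3.17-fold and Ddx4 at least 2.90-fold higher, while Bmp15, Figla and Nobox were under the floor in both pools, as were Nlrp5 and Nlrp4c.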
